A study of Mus musculus with 41 samples.

Results

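Ncam1, Map1b, Celf2 and Gnao1 are 4 neuronal genes that lie under some of the widest H4K20me1 domains called in cultured mouse cortical neurons. Ncam1 encodes the neural cell adhesion molecule, Map1b a microtubule-associated protein of growing axons, Celf2 an RNA-binding regulator of splicing, and Gnao1 the alpha subunit of the G protein Go. The members described here are all called regions and sites that touch a fixed window around each gene on build mm9. The windows are chr9:49300000-49620000 (320 kb, Ncam1), chr13:100180000-100300000 (120 kb, Map1b), chr2:6450000-7450000 (1000 kb, Celf2) and chr8:96320000-96510000 (190 kb, Gnao1). They held 1290 of 488881 entries (0.264%) over 27 lists: 373 at Ncam1, 144 at Map1b, 596 at Celf2 and 177 at Gnao1. Of these, 400 were H4K20me1 regions. The windows were selected on the width of H4K20me1 regions in these same lists, so the width and cover of H4K20me1 in them are given as a description and nothing is read from them. Entries of the other targets played no part in that choice.

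The neurons were cultured for 10 days in vitro and sampled at 0 h or 1 h of a bath in 55 mM KCl, which depolarizes neurons. LSD1 removes methyl groups from histone lysines, and LSD1n is its neuronal splice isoform. H4K20me1, H3K36me3, H3K4me1 and Pol II were profiled in LSD1n WT and LSD1n KO neurons at both times, and H3K4me2 in LSD1n WT at both times. LSD1 was profiled in LSD1n WT at 0 h, in LSD1n KO with no KCl time in its labels, and in wild-type neurons at both times. Flag-tagged protein was profiled at both times in neurons labelled R26/LSD1n or R26/LSD1c. Each group has 1 list except H4K20me1 in WT at 1 h, which has 2, so no difference between groups was tested. The labels do not say whether those 2 came from separate cultures. Bracketed ranges are 95% exact intervals that cover counting error only.

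H4K20me1 is a single methyl group on lysine 20 of histone H4 that is found over the bodies of many transcribed genes. H3K36me3 is laid down behind elongating RNA polymerase II (Pol II) and gathers toward the far end of gene bodies. H3K4me2 marks promoters and enhancers, H3K4me1 marks enhancers and the flanks of promoters, and a promoter-near Pol II peak marks where a gene starts.

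Sequencing depth ran from 6990017 to 34859557 tags per list, and from 14644165 to 27586111 for H4K20me1. The share of tags inside called regions differed more between the H4K20me1 lists. It was 10.5% in WT and 19.6% in KO at 0 h, 10.2% and 0.881% in the 2 WT lists at 1 h, and 2.98% in KO at 1 h. The second WT 1 h list of H4K20me1 stood apart from the first: its regions covered 0.116% of the genome against 2.18%. It shares a title prefix with the KO 1 h list (0.458%), while both 0 h lists (WT 1.89%, KO 3.54%) share another. The first WT 1 h list has a prefix of its own. The KCl time and the title prefix therefore cannot be told apart in either genotype. The 2 WT 1 h lists also differ in prefix, so the spread between them cannot be told apart from a prefix difference. In all 4 Pol II lists the name inside the file swaps the genotype of the label. Groups follow the labels, and these lists are called the libraries labelled WT or KO. Peak positions do not report expression, so neither the neuronal identity of the cells nor the loss of LSD1n was checked here.

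Promoter sequences of these genes are shown because the domains ended beside regions of H3K4me2 and sites of Pol II, marks of promoters. The table of RefSeq promoters on GRCm38.p6 held 7 starts for 3 of the 4 genes: 1 for Map1b, 1 for Gnao1 and 5 for Celf2. Printed below are the 250 bases before the start of Map1b, of Gnao1 and of the Celf2 start richest in CG, 5′ to 3′ on the gene's strand, with every CG dinucleotide in capitals.

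Map1b (chr13:99516603-99516852, minus strand): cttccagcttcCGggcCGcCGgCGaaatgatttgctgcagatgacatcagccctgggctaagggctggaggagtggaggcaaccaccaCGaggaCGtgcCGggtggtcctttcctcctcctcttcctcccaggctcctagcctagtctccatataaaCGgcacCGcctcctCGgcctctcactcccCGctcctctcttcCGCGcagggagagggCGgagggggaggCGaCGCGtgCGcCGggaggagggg
Celf2 (chr2:6872036-6872285, minus strand): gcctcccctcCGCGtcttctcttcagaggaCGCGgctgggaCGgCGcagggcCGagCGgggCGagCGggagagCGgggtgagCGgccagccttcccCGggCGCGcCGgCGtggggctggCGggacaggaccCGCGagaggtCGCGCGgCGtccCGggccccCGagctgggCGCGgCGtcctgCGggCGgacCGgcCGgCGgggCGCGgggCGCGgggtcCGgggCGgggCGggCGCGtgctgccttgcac
Gnao1 (chr8:93810588-93810837, plus strand): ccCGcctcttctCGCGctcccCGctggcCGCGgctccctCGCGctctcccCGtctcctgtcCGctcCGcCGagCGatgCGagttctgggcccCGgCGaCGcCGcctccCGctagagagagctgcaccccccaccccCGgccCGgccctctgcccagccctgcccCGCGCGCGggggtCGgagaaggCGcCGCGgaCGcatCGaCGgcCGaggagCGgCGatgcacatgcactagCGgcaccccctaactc

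The Celf2 stretch has 43 CG dinucleotides, as many as or more than all but a small share of promoters: 0.712% of the 32851 in the table reach that number over the same length. The other 4 Celf2 starts have 3 to 7. Gnao1 has 36 (2.58% of promoters reach it) and Map1b has 19 (19.7%), against a median of 6.00. The motif TATAAA, searched on both strands, was in the Map1b stretch and in 1 of the 5 Celf2 stretches, and 12.4% of all promoters hold it. It was not in the Gnao1 stretch, which says only that these letters are not in that window. These positions are on another build than the peaks and were not joined to them.

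Map1b carried the most continuous H4K20me1 domain. Its regions covered 74.8% of the window in WT at 0 h, 78.8% in KO at 0 h, 76.3% and 44.3% in the 2 WT lists at 1 h, and 73.1% in KO at 1 h. In 4 of the 5 lists a single region made up nearly all of it. That region ran over chr13:100195030-100284178 in WT at 0 h (89.1 kb), chr13:100190084-100284602 in KO at 0 h (94.5 kb), chr13:100194547-100285365 in the first WT 1 h list (90.8 kb) and chr13:100197113-100283817 in KO at 1 h (86.7 kb). It was the widest of all H4K20me1 regions in WT at 0 h and in KO at 1 h. In the second WT 1 h list the same stretch was broken into 19 regions, the widest being chr13:100242256-100256182 (13.9 kb). All 5 lists covered 43.8% of the Map1b window (52.6 kb), a larger part than at the other genes (Ncam1 5.80%, Celf2 6.14%, Gnao1 12.9%).

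Ncam1 showed the largest difference in unscaled cover between genotypes at 0 h among the 4 genes; scaled by the genome cover of each list it was the smallest, at −12.9, and of opposite sign. For that scaling each cover was multiplied by the ratio of the compared list's genome cover to its own, so scaled values are not shares of a window. Its cover was 50.8% in WT and 71.3% in KO, a difference of 20.4 percentage points. At 1 h it was 53.1% and 6.28% in the 2 WT lists and 30.8% in KO. The SD of the WT pair was 33.1 points (n = 2), so the 0 h difference was smaller than the spread between these 2 lists. In WT at 0 h the window held 39 regions, the widest at chr9:49535501-49605341 (69.8 kb). In KO it held 30, the widest at chr9:49460056-49604658 (145 kb). Of the KO bases 69.1% were also in WT, and of the WT bases 96.8% were also in KO. The 70.6 kb found in KO alone fell in 59 pieces, of which the longest was chr9:49505146-49510022 (4.88 kb). In the KO list the gaps between WT regions were thus bridged at many places rather than at 1. The widest region was chr9:49540216-49596576 (56.4 kb) in the first WT 1 h list, chr9:49551168-49554064 (2.90 kb) in the second, and chr9:49576090-49605596 (29.5 kb) in KO at 1 h.

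Gnao1 was covered to 71.8% in WT at 0 h and 80.4% in KO at 0 h. At 1 h the 2 WT lists gave 76.8% and 14.1% and the KO list 42.6%. The 0 h difference of 8.57 points was within the SD of the WT pair (44.3 points, n = 2). The widest region was chr8:96335824-96398414 (62.6 kb) in WT at 0 h, chr8:96335676-96437156 (101 kb) in KO at 0 h and chr8:96336232-96437618 (101 kb) in the first WT 1 h list. In the second WT 1 h list it was chr8:96362339-96369027 (6.69 kb). In KO at 1 h it was chr8:96346290-96374542 (28.3 kb), and the window was split into 27 regions against 6 in KO at 0 h.

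At Celf2 the domain lay in the lower part of a 1000 kb window. The share covered was 30.3% in WT and 31.5% in KO at 0 h, 28.8% and 6.32% in WT at 1 h, and 24.8% in KO at 1 h. The SD of the WT pair was 15.9 points (n = 2). The bases covered came to 303 kb in WT and 315 kb in KO at 0 h, the longest total of the 4 genes. The widest region was chr2:6623186-6694002 (70.8 kb) in WT at 0 h, chr2:6508978-6603910 (94.9 kb) in KO at 0 h and chr2:6623073-6680293 (57.2 kb) in the first WT 1 h list. It was chr2:6711191-6718963 (7.77 kb) in the second WT 1 h list and chr2:6623104-6680416 (57.3 kb) in KO at 1 h. Of the WT bases at 0 h, 98.0% were also in KO.

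Together the 4 windows were covered over 692 kb in WT and 791 kb in KO at 0 h, 1.14 times as much, while over the whole genome the KO list covered 1.88 times as much as WT. In bins of 5 kb at least 50% covered, 139 of the 326 bins in the windows were called in WT at 0 h, where 1.47% of all bins were. In KO at 0 h 158 bins were called (all bins, 3.08%). At 1 h there were 140 (1.76%) and 26 (0.0555%) in the WT lists and 102 (0.278%) in KO. From WT to KO at 0 h, 19 bins were called in KO alone (all bins, 1.66%), 12 of them at Ncam1, and 0 in WT alone (0.0538%). Scaled by the genome cover of each list, the KO minus WT difference at 0 h turned negative at all 4 genes (−12.9 to −32.8 on the scaled cover). Since the windows were chosen for H4K20me1, these counts describe them only.

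At 1 h the KO list, whose title prefix also differs, covered less of each window than at 0 h. The difference was −40.5 percentage points at Ncam1, −37.8 at Gnao1, −6.76 at Celf2 and −5.68 at Map1b. The cover left was 43.2% of that at 0 h at Ncam1, 53.0% at Gnao1, 78.6% at Celf2 and 92.8% at Map1b, against 12.9% over the genome. Because the windows were chosen for wide H4K20me1 regions in these same lists, nothing is read from this gap to the genome. The same holds for the bins that follow. Bins called at 0 h and no longer at 1 h numbered 56 of 326 (all bins, 2.81%): 27 at Ncam1, 16 at Gnao1, 12 at Celf2 and 1 at Map1b. The longest single piece found in KO at 0 h and not at 1 h was chr8:96466038-96488517 (22.5 kb) at Gnao1. At Ncam1 the regions that stayed lay nearer the Pol II site: 48.5% of the covered bases were within 50 kb of it at 1 h, against 21.3% at 0 h. In KO this share went from 32.0% to 51.1% at Gnao1 and from 50.9% to 54.0% at Map1b, and was 0% at both times at Celf2. In WT at Ncam1 it was 30.2% at 0 h, 28.6% in the first 1 h list and 72.5% in the second, so a rise was not particular to KO.

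In WT the direction of the KCl difference turned with the 1 h list used at Ncam1, Map1b and Gnao1, and at Celf2 both lists were below 0 h. The first WT 1 h list differed from WT at 0 h by 2.25 points at Ncam1, 1.45 at Map1b, −1.52 at Celf2 and 4.96 at Gnao1. The second differed by −44.6, −30.6, −24.0 and −57.7 points in the same order. The mean of both gave a genotype difference at 1 h (KO minus WT) of 1.11 points at Ncam1, 12.8 at Map1b, 7.22 at Celf2 and −2.84 at Gnao1, each smaller than the SD of the WT pair. It too turned with the list. Against the first WT list, KO differed by −22.3 points at Ncam1, −3.17 at Map1b, −4.02 at Celf2 and −34.2 at Gnao1. Against the second, which shares the title prefix of KO, KO was higher by 24.5, 28.8, 18.5 and 28.5 points in that order. The bases of the second WT list were nearly all inside the first (98.8% over the 4 windows).

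**Figure D1:**
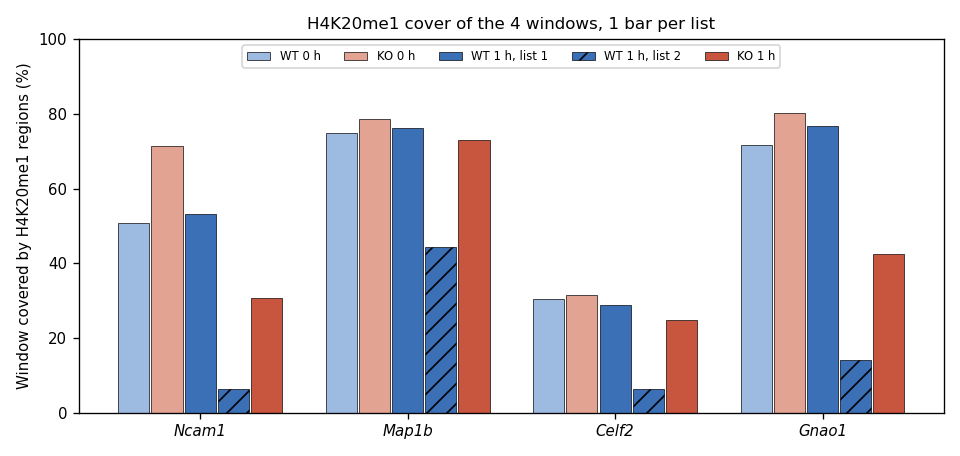
Share of each gene's window covered by H4K20me1 regions in percent, 1 bar per list (pale, 0 h; dark, 1 h; hatched, the second WT list at 1 h). The hatched bar is the lowest at every gene, and KO at 1 h falls furthest below KO at 0 h at Ncam1 and Gnao1.

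The windows did not hold all of the widest regions. The widest region outside them had rank 1 by width in both WT 1 h lists and rank 2 in the other lists. It was 144 kb in KO at 0 h (chr8:125421712-125565800) and 103 kb in the first WT 1 h list (chr12:110781640-110884212). In WT at 0 h it was chr11:3026816-3100138 (73.3 kb). Nearly the same stretch was the widest outside in the second WT 1 h list (71.3 kb) and in KO at 1 h (71.2 kb). Of the 10 widest H4K20me1 regions of a list, the windows held 4 in WT at 0 h, 2 in KO at 0 h, 2 and 1 in the WT lists at 1 h, and 4 in KO at 1 h.

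At 3 of the genes the domain began beside a Pol II site and an H3K4me2 region and lay on 1 side of them. At Map1b, Pol II was called in all 4 Pol II lists at chr13:100286347-100286605, among the first entries of each list (order 284 of the library labelled KO at 0 h, 410 of KO at 1 h, 686 of WT at 0 h and 1488 of WT at 1 h). An H3K4me2 region of WT at 0 h, chr13:100285525-100287017 (1.49 kb), spanned that site and held no H4K20me1 in any list. The nearest H4K20me1 region began 0.982 to 3.07 kb from the site over the 5 lists. In the 50 kb below the H3K4me2 region H4K20me1 covered 48.7 kb in WT and 49.1 kb in KO at 0 h, and 0 kb in the 50 kb above. Map1b is on the minus strand in its RefSeq entry, so the domain lay downstream of the start.

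Gnao1, on the plus strand, had the mirror arrangement. Pol II lay at chr8:96334437-96334695 in 3 lists, and the library labelled KO at 0 h had no site in the window. The H3K4me2 region chr8:96333507-96334917 (1.41 kb) spanned it with no H4K20me1 in any list. H4K20me1 began 0.981 to 3.22 kb above, and covered 49.1 kb (WT) and 49.2 kb (KO) of the next 50 kb at 0 h, with 0 kb in the 50 kb below. A second H3K4me2 region, chr8:96336330-96339804 (3.48 kb), lay wholly inside the domain at 0 h in both genotypes.

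At Ncam1 the Pol II group chr9:49605173-49607146 held 10 sites from all 4 lists. Here H4K20me1 reached into the group in 4 of the 5 lists and stopped 0.515 kb short of it in KO at 0 h. The H3K4me2 region chr9:49603873-49605819 (1.95 kb) was covered to 75.4% by H4K20me1 in WT and 40.4% in KO at 0 h, and nearly all of the 50 kb below it was covered in both. Above it H4K20me1 covered 0 kb in both.

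Celf2 differed, since its H4K20me1 did not reach the Pol II group called in the most lists, chr2:7315907-7317894. The nearest region was 18.2 kb away in WT at 0 h, a lone short region, and 368 to 538 kb away in the other lists. The domain instead ended at a run of H3K4me2. The widest H3K4me2 region of the window, chr2:6793173-6798659 (5.49 kb, WT at 1 h; chr2:6792536-6798002 at 0 h), had 38.4 kb of H4K20me1 in the 50 kb below it and 0.501 kb above it in WT at 0 h. In KO at 0 h these were 38.8 and 0.501 kb. The first-listed Pol II sites of the libraries labelled WT and KO at 0 h, chr2:6793287-6793487 and chr2:6793782-6793982, were inside this region. Those at 1 h lay above it, at chr2:6805892-6806092 (labelled WT) and chr2:7001878-7002078 (labelled KO). Neither 1 h list had a Pol II site inside this region. Celf2 is on the minus strand in its RefSeq entries, so here too the domain lay downstream of the H3K4me2 run.

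This one-sided layout was also common outside the windows. Among H3K4me2 regions of WT at 0 h that touched a Pol II site, those with at least 25 kb of H4K20me1 within 50 kb, both sides summed, were counted. In WT at 0 h 7 such regions were in the windows, and in all 7 at least 90% of the H4K20me1 lay on 1 side. Outside the windows it was 359 of 533 (67.4%). In KO at 0 h it was 6 of 7 in the windows and 904 of 1643 (55.0%) outside. Several of the 7 flank the same domain, and this count was chosen after the data were seen.

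H3K4me2 was less frequent in the domains than in other H4K20me1 bins, though more frequent than in all bins. In the windows' bins called for H4K20me1 in WT at 0 h, 14 of 139 (10.1%) held an H3K4me2 region, against 28.3% of the 7639 other bins called for H4K20me1 and 3.79% of all bins. At 1 h it was 10 of 139 (7.19%) against 24.5% of the others and 3.27% of all bins. H3K4me2 regions totalled 36.9 kb in WT at 0 h and 29.5 kb at 1 h, a ratio of 0.800 where the genome gave 0.753. By gene they went from 6.35 to 4.55 kb at Ncam1, from 6.37 to 7.00 kb at Map1b, from 19.3 to 17.0 kb at Celf2 and from 4.89 to 1.00 kb at Gnao1. The Gnao1 ratio of 0.205 was the lowest of the 4. These 2 libraries were the shallowest of the series (9418008 tags at 0 h and 6990017 at 1 h), and the part of depth in these differences was not tested.

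H3K4me1, in contrast, was dense inside the domains. In WT at 0 h, 94 of the 139 bins (67.6%) held a region, against 47.7% of other H4K20me1 bins and 7.45% of all bins. Of the 136 H3K4me1 regions in the windows at that point, 110 (80.9% [73.3 to 87.1]) overlapped H4K20me1 of the same group, while H4K20me1 covered 42.5% of the windows. Over the genome 21.1% of the H3K4me1 regions of that list did, and the windows were chosen for H4K20me1. Within each window the cover by H3K4me1 in WT at 0 h was higher inside the H4K20me1 domain (WT and KO regions of 0 h joined) than outside it. It was 19.4% against 0.348% at Ncam1, 21.8% against 1.97% at Map1b, 16.7% against 3.95% at Celf2 and 14.5% against 3.13% at Gnao1.

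After KCl, H3K4me1 cover of the windows differed little in WT and was higher in KO. In WT it was 171 kb at 0 h and 177 kb at 1 h, a ratio of 1.04 where the genome gave 1.36. In KO it was 152 kb at 0 h and 358 kb at 1 h, a ratio of 2.36 where the genome gave 2.45. All 4 windows were higher in KO at 1 h: from 35.5 to 81.8 kb at Ncam1, from 25.4 to 47.4 kb at Map1b, from 77.3 to 175 kb at Celf2 and from 13.4 to 54.4 kb at Gnao1. The KO difference in the windows was thus about that of the whole list, and scaled by each list's genome cover it was −0.335. Gnao1 alone exceeded the genome ratio (4.06). The KO 1 h library was also the deepest of the series, at 34859557 tags against 22970480 for KO at 0 h. Tags inside called regions made up 12.3% of it, against 5.89% for KO at 0 h. The part of depth or of this share in the difference was not tested. The widest H3K4me1 region of each window came from this list: chr9:49397623-49407123 (9.50 kb), chr13:100210751-100221757 (11.0 kb), chr2:6645166-6655096 (9.93 kb) and chr8:96440171-96450239 (10.1 kb).

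H3K36me3 covered less in KO than in WT at every gene and both times, a direction that turned for the 4 windows together once each list was scaled by its genome cover. The 4 windows held 38.2 kb in WT and 13.4 kb in KO at 0 h (ratio 0.352), and 59.5 kb in WT and 13.7 kb in KO at 1 h (ratio 0.230). Over the genome the ratios were 0.289 and 0.146, so the windows did not stand below the rest of the list. With that scaling KO minus WT was 0.507 at 0 h and 2.12 at 1 h. The KO libraries were shallower (13147855 tags at 0 h and 12572399 at 1 h, against 19055899 and 16785574 in WT). Their share of tags inside called regions was also lower, at 0.834% and 0.644% against 1.99% and 3.24% in WT. The part of depth or of this share in the difference was not tested.

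By gene, H3K36me3 covered 9.23 kb in WT and 2.66 kb in KO at 0 h at Ncam1, and 15.7 and 2.71 kb at 1 h. At Celf2 it covered 12.1 and 4.58 kb at 0 h, and 20.4 and 3.33 kb at 1 h. At Gnao1 it covered 11.0 and 3.23 kb at 0 h, and 11.2 and 1.37 kb at 1 h. Map1b kept the largest part in KO: 5.84 kb in WT against 2.94 kb in KO at 0 h, and 12.1 kb against 6.29 kb at 1 h. Its 1 h ratio of 0.519 was 3.56 times that of the genome. In bins, 34 of 326 held H3K36me3 in WT and not in KO at 0 h (all bins, 1.76%) and 8 in KO and not in WT (0.296%). At 1 h these were 43 (2.80%) and 9 (0.195%), and 6 of those 9 were at Map1b.

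In WT at 0 h H3K36me3 lay farther from the Pol II site than H4K20me1 did, on average, at each gene. Its bases in WT at 0 h were on average 253 kb from the site at Ncam1, where those of H4K20me1 were 102 kb away. The averages were 83.1 and 47.2 kb at Map1b, 788 and 689 kb at Celf2, and 117 and 71.2 kb at Gnao1. In WT at 0 h none of the H3K36me3 bases at Ncam1, Map1b and Celf2 was within 50 kb of the site, and at Gnao1 13.6% were. At Celf2 the site used is the Pol II group that the domain did not reach. There only 0.165% of the H4K20me1 bases in WT at 0 h were within 50 kb, so the Celf2 distances depend on that choice of site. In KO at 1 h 46.4% of the bases at Map1b and 36.7% at Gnao1 were within 50 kb. The widest H3K36me3 regions, all from WT at 1 h, were chr9:49315146-49318224 (3.08 kb), chr13:100199753-100202933 (3.18 kb), chr2:6471809-6476931 (5.12 kb) and chr8:96480070-96482282 (2.21 kb). At Ncam1 the mark was thinner inside the H4K20me1 domain (1.33% covered) than outside it (7.07%), and at Celf2 the reverse held (3.44% and 0.148%). In all, 33 of 52 H3K36me3 regions (63.5% [49.0 to 76.4]) overlapped H4K20me1 in WT at 0 h, which covered 42.5% of the windows. In KO at 0 h all 20 did, where it covered 48.5%. Over the genome 20.4% of the H3K36me3 regions in WT and 42.0% in KO at 0 h overlapped it, so the share was higher in KO there too.

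**Figure D2:**
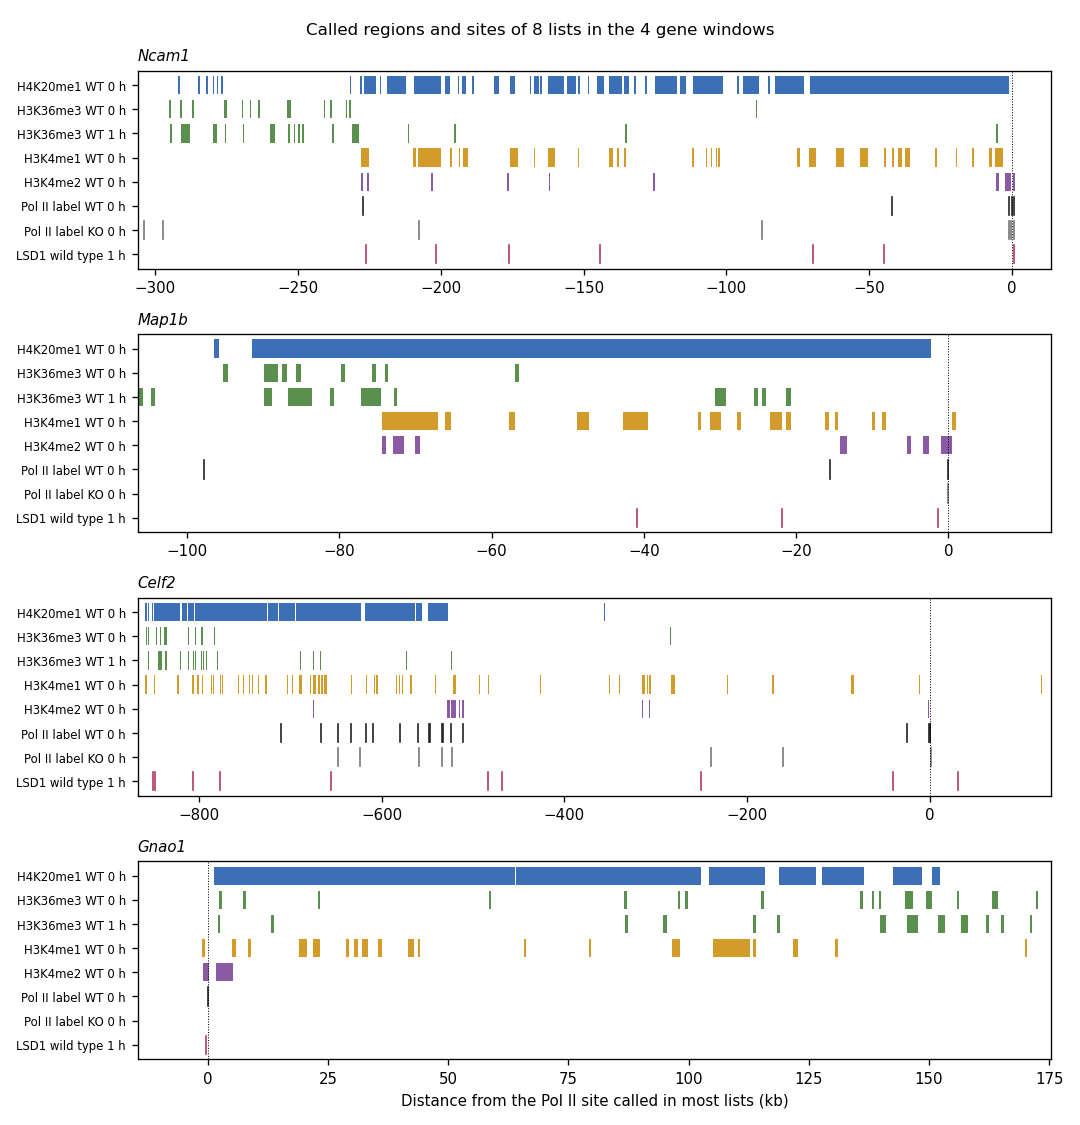
Called regions (bars) and sites (ticks) of 8 lists in each gene's window, against the distance in kb from the Pol II site called in the most lists (dotted line at 0). H3K4me2 sits at the dotted line at Ncam1, Map1b and Gnao1, H3K4me1 lies along the H4K20me1 domain, and much of the H3K36me3 lies far from the dotted line.

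**Figure D3:**
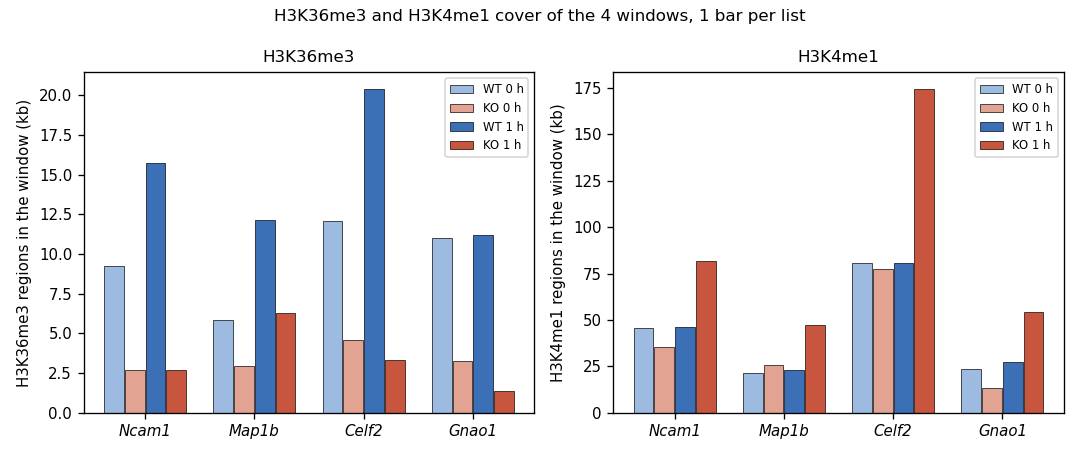
Length covered by H3K36me3 (left) and H3K4me1 (right) in each gene's window in kb, 1 bar per list (blue, LSD1n WT; red, LSD1n KO; pale, 0 h; dark, 1 h). Both KO bars are below the WT bar of the same time for H3K36me3 at every gene, and for H3K4me1 the KO bar at 1 h is the tallest at every gene.

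Pol II sites in the windows were compared by label and time. The library labelled WT had 27 sites in the 4 windows at 0 h and 10 at 1 h; the library labelled KO had 16 and 21. Per Mb these were 16.6 [10.9 to 24.1], 6.13 [2.94 to 11.3], 9.82 [5.61 to 15.9] and 12.9 [7.98 to 19.7], against genome levels of 4.95, 5.40, 5.38 and 6.13. In bins, 21, 9, 14 and 18 of 326 held a site, where 2.40%, 2.64%, 2.61% and 2.99% of all bins did. Celf2, which is 1000 of the 1630 kb of window, gave 18 and 6 of the sites labelled WT at 0 h and 1 h, and 8 and 17 of those labelled KO. Map1b and Gnao1 had 0 to 3 sites in any list. At Celf2 they were spread over many positions, both in the domain and above it. Over the 4 windows, 15 of the 27 sites labelled WT at 0 h overlapped H4K20me1 (55.6% [35.3 to 74.5]), which covered 42.5% of the windows. For the library labelled KO at 0 h it was 6 of 16 (37.5% [15.2 to 64.6], windows covered to 48.5%). At 1 h it was 2 of 10 for the library labelled WT (windows 42.7%) and 12 of 21 for that labelled KO (windows 31.6%). Over the genome the shares of sites that overlapped H4K20me1 were 7.90% (labelled WT) and 10.9% (labelled KO) at 0 h. At 1 h these genome shares were 5.12% and 6.01%. With the genotypes read from the names inside the lists, the WT and KO site counts, densities and bins change places. The overlap shares do not simply change places, since each would need the H4K20me1 list of the other genotype.

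LSD1 sites in the windows differed in number between lists. In wild-type neurons the windows held 11 LSD1 sites at 0 h (6.75 per Mb [3.37 to 12.1], genome 8.58) and 21 at 1 h (12.9 per Mb [7.98 to 19.7], genome 6.99). Ncam1 went from 2 to 7 sites, Map1b from 0 to 3, Celf2 from 8 to 10, and Gnao1 had 1 at each time. LSD1n WT at 0 h had 8 sites (4.91 per Mb [2.12 to 9.67], genome 5.07). The LSD1n KO list had 2, both at Celf2 (1.23 per Mb [0.149 to 4.43], genome 5.19). At 1 h the wild-type list had a site at or beside an H3K4me2 region next to the Pol II site of 3 genes. These were chr9:49607000-49607200 at Ncam1, chr13:100285074-100285274 at Map1b and chr8:96334074-96334274 at Gnao1. The wild-type list at 0 h had none at these positions, and its nearest entry at Ncam1 was chr9:49602228-49602428. In LSD1n WT at 0 h a site was called inside the Map1b H3K4me2 region, at chr13:100286773-100286973.

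Flag-tagged LSD1n gave 0 sites in the windows at 0 h and 1 at 1 h (0.613 per Mb [0.0155 to 3.42], genome 1.68), at chr9:49605545-49605745. That site lies in the H3K4me2 region and the Pol II group of Ncam1, and it was entry 1341 of 4438 in its list. Flag-tagged LSD1c gave 0 sites at both times. A count of 0 gives 0 per Mb [0 to 2.26]. The genome levels were 0.356 for Flag-LSD1n at 0 h and 1.49 and 2.08 for Flag-LSD1c at 0 h and 1 h, each inside that interval. In the domains' own bins (WT at 0 h), 0 of 139 held a Flag-LSD1c site at 1 h, against 8.65% of other H4K20me1 bins and 1.02% of all bins. It was also 0 for Flag-LSD1c at 0 h (6.00% and 0.744%) and Flag-LSD1n at 0 h (1.24% and 0.168%) and 1 h (6.77% and 0.837%). LSD1 in LSD1n KO gave 0 as well (9.10% and 2.48%), and LSD1n WT at 0 h gave 2 (1.44%, against 10.7% and 2.33%). Wild-type LSD1 sites were in 3 of 139 (2.16%) at 0 h, against 14.1% of other H4K20me1 bins and 4.0% of all bins. At 1 h they were in 9 of 139 (6.47%), against 12.8% and 3.43%, so below the other H4K20me1 bins but above all bins. Pol II was in 11 of 139 (7.91%) in the library labelled WT and 6 (4.32%) in that labelled KO at 0 h, and in 1 (0.719%) and 5 (3.60%) at 1 h. The other H4K20me1 bins gave 14.2% to 15.1%, and all bins 2.40% to 2.99%.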

How the data were processed

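The 27 of 41 samples with a peak list were used, and 10 samples of GRO-seq and 4 of RNA-seq were not used here. Groups follow the labels. Bowtie, HOMER (no version given) and mm9 are named in the submitters' processing notes. The authors, per the file headers, stitched histone regions from 500 bp peaks (minimum distance 1250 bp) and called 200 bp sites for Pol II and LSD1 (minimum distance 500 bp, 4-fold over the local 10 kb), at a false discovery rate of 0.001 with 1 tag per position. The deposited values used are start and end positions in bp, printed from 1; tag totals come from the headers.

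Cover, shared bases, bins of 5 kb and overlaps of at least 1 bp were computed (Python 3.11.15; numpy 2.4.6; scipy 1.17.1; matplotlib 3.10.9 for figures) and tested on 200 simulated lists. Intervals are 95% Clopper-Pearson or Poisson. The genome is 21 chromosomes and 2641 Mb. Overlaps of KO and WT peaks used the H4K20me1 list of the same genotype and time (first WT list at 1 h). No mm9 annotation was used, so exons and introns are not given. Regions named are the widest of each H4K20me1 list and of each other mark per window, the first-listed Pol II sites, Flag-LSD1n sites, and some chosen after their values were seen. Members, lists and rules were chosen with earlier results of these data known. The alternatives were merging within 5 kb, regions of at least 2 kb, equal numbers of regions, the stretch of the 0 h domain, scaling by genome cover, leaving out peaks shared by all 8 targets or 1 WT list, other site and overlap rules and other bins.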

Additional observations from a re-analysis of the deposited data

Results flagged for a closer look

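These differences were picked out because the single WT and the single KO list moved in opposite directions after KCl; none of these differences was tested. H3K36me3 at Celf2 went up by 8.37 kb in WT and fell by 1.25 kb in KO, so the KO change minus the WT change was −9.62 kb. H3K36me3 at Gnao1 went up by 0.185 kb in WT and fell by 1.86 kb in KO, a difference of −2.05 kb. H3K4me1 at Celf2 fell by 0.110 kb in WT and went up by 97.4 kb in KO, a difference of 97.5 kb. Pol II sites at Celf2 fell by 12 in the library labelled WT and went up by 9 in that labelled KO, a difference of 21 sites. With the genotypes read from the names inside the lists, these directions change places. Over all 4 windows the first 50% of each list held 5 and 3 sites labelled WT at 0 h and 1 h, and 5 and 4 labelled KO. Genome levels per Mb were 4.95 and 5.40 labelled WT, and 5.38 and 6.13 labelled KO. Each direction rests on 1 list per group. The H3K36me3 lists moved the same way over the genome, with ratios of 1 h to 0 h of 1.64 in WT and 0.829 in KO, against 1.69 and 0.728 at Celf2 and 1.02 and 0.423 at Gnao1. For H3K4me1 the genome ratios were 1.36 and 2.45, against 0.999 and 2.26 at Celf2.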

How the results depend on the processing

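Over 55 results and 236 alternatives, 179 values kept their direction and stayed within the spread or 1.5 times, 27 moved further and 30 turned. For H4K20me1 the spread was the SD of the 2 WT lists at 1 h (15.9 to 44.3 points), above most of the differences themselves. A value of the same sign was thus nearly always kept. At Map1b, KO minus WT at 0 h was kept though merging took it from 3.95 to 0.339. The 179 are therefore no measure of how steady these differences are. The 179 include the values without peaks that overlap every target, a rule that could remove no peak lying inside a window. The cause of the moves and turns was not tested. Differences are in percentage points of window cover, except after scaling by the genome cover of each list, from which most turns came. There each cover was multiplied by the ratio of the compared list's genome cover to its own, so scaled differences can pass 100 and are not shares of a window. H4K20me1 in KO minus WT at 0 h became −12.9 at Ncam1, −32.8 at Map1b, −13.5 at Celf2 and −29.0 at Gnao1; in KO at 1 h minus 0 h it became 167, 487, 160 and 249. In KO minus the WT mean at 1 h it became 61.1, −105, 44.3 and 32.1, and in WT at 1 h minus 0 h 23.1, 318, 33.5 and 76.1. With the same scaling H3K36me3 in KO minus WT was 0.507 at 0 h and 2.12 at 1 h, H3K4me1 at 1 h minus 0 h was −2.48 in WT and −0.335 in KO, and H3K4me2 was 0.142.

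Leaving out either WT list at 1 h, the KO minus WT difference at 1 h ran from −22.3 to 24.5 at Ncam1, −3.17 to 28.8 at Map1b, −4.02 to 18.5 at Celf2 and −34.2 to 28.5 at Gnao1. The WT difference of 1 h minus 0 h ran from −44.6 to 2.25, −30.6 to 1.45, −24.0 to −1.52 and −57.7 to 4.96. Merging regions within 5 kb gave −0.261 for H4K20me1 at Celf2 (KO minus WT, 0 h) and 9.72 at Gnao1 (1 h), −4.71 and −6.42 for H3K36me3 at 0 h and 1 h (−1.52 and −2.81 without merging), and 18.6 for H3K4me1 in KO (12.7). Only regions of at least 2 kb gave −0.164 and −1.15 for H3K36me3 and 0.123 for H3K4me2. Equal numbers of the widest regions gave −0.354 and −1.0 for H3K36me3, and −0.193 in WT and 10.3 in KO for H3K4me1, and the stretch of the 0 h domain gave 14.5 for H3K4me1 in KO.

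The first 50% of each list held 5 Pol II sites in both libraries at 0 h, 3 (labelled WT) and 4 (labelled KO) at 1 h, and 3, 10, 4 and 1 LSD1 sites in wild type at 0 h and 1 h, LSD1n WT and LSD1n KO. Within the stretch of the 0 h domain there were 10 Pol II sites labelled KO at 0 h, 1 LSD1 site in KO and 0 Flag-LSD1n sites at 1 h. Against the KO 0 h list of H4K20me1, 80.8% of H3K36me3 regions in WT at 0 h, 91.3% in KO at 1 h and 71.6% of H3K4me1 regions in KO at 1 h overlapped. In the second WT 1 h list, 15.6% of window bins were at least 25% covered and, by a rule added after the data were seen, 27% were touched by at least 1 bp, against 7.98% at 50%. Leaving out peaks that overlap every target changed none of the values here. Flag-LSD1c, 1 of the targets, had 0 sites in the windows, so this rule could remove no peak lying inside them and shows nothing. No paired analysis was possible because every group but 1 has 1 list, and no list carries a replicate number. With 1 list a group and no counts in the lists, depth and the share of tags inside called regions were not separated from genotype or KCl time.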
